A study of Mus musculus with 16 samples.

Results

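Long noncoding RNA (lncRNA) loci that lie apart from protein-coding genes were examined for H3K27ac and H3K4me3 in mouse late 2-cell embryos. The loci were the RefSeq genes of biotype lncRNA on chromosomes 1 to 19 of GRCm38 that were 1 kb or longer and lay over 5 kb from every protein-coding gene body. The rule selected 6104 of 47042 RefSeq genes on these chromosomes, or 49.2% of the 12408 lncRNA genes. It also named the biotype ncRNA, which had 0 entries. The rule uses biotype, length and position, and no peak value. Median locus length was 9489 bp (quartiles 4246 and 21693 bp), and the median distance to the nearest coding gene was 50372 bp (quartiles 19451 and 142851 bp). Curated RefSeq records existed for 1410 loci, and 4694 were known from computed transcript models alone. Only 252 had a symbol other than a Gm number or a Rik clone name.

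Embryos were collected 36 h after fertilization. Control embryos had been injected with H2O at the zygote stage and mutant embryos with mRNA encoding a mutant Hdac1, so the injection of an mRNA and the mutant protein cannot be told apart. The nature of the mutation, the mouse strain and the number of embryos per library are not given in the sources used here. Both marks were profiled by native ChIP-seq for ultra-low input (ULI-NChIP-seq), in which uncrosslinked chromatin is cut with micrococcal nuclease and precipitated with an antibody. Each group had 2 immunoprecipitation libraries and 2 input libraries but a single deposited peak list, so no value has a replicate error and no test between conditions was possible. The lists held 73320 control and 114737 mutant H3K27ac peaks, and 83220 control and 83290 mutant H3K4me3 peaks, on chromosomes 1 to 19. They give positions without scores or read counts, and the sequencing depth is unknown. Intervals in the text are 95% Wilson intervals, which cover counting error only and treat loci as independent, although 1543 of the 6104 loci lay in clusters with overlapping windows.

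LncRNAs are transcribed by RNA polymerase II and processed like messenger RNAs but do not encode proteins. Their promoters can carry the same marks as those of coding genes, with H3K4me3 at the transcription start and H3K27ac at active promoters and enhancers. H3K4me3 deposition is favoured by CpG-rich DNA, since subunits of the H3K4 methyltransferase complexes bind unmethylated CpG dinucleotides. Hdac1 removes acetyl groups from histones. At the mouse 2-cell stage the embryonic genome is activated, and the broad H3K4me3 inherited from the oocyte gives way to narrower domains at promoters.

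Transcription strand was known for the 4632 loci (75.9%) that had an entry in the RefSeq promoter table of GRCm38.p6. The table gives 250 bases before the start and the first 50 transcribed bases. For 4493 of these loci the entry lay at the outermost 5′ end of the gene. The promoters of 6 loci are shown 5′ to 3′ because they differ in CpG content and in mark state, with CpG dinucleotides in capitals. They were chosen after the values were seen. The first pair, from small nucleolar RNA host genes, lay under all 4 peak lists. Mir9-3hg and Snhg17 had H3K4me3 in both conditions, without H3K27ac at the start in mutant embryos, and Snhg17 had it there in control embryos. Lncenc1 had H3K4me3 at the start in control embryos alone, and Platr3 had no peak in any list.
Snhg5, chr9:88522848-88523147, minus strand, 36 CpG: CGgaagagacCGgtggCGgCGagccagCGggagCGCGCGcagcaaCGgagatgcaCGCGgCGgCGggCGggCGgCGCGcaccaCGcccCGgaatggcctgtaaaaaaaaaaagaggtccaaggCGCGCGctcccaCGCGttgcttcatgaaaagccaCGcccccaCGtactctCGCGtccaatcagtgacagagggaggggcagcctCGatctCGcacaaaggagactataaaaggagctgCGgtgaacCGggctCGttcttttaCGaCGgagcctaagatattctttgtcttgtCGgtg
Snhg11, chr2:158375463-158375762, plus strand, 21 CpG: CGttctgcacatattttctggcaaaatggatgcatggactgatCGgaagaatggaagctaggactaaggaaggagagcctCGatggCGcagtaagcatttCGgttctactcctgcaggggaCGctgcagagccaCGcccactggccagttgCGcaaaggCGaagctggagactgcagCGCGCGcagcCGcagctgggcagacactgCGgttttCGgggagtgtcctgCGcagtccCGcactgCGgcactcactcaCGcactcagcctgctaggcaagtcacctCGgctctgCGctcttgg
Mir9-3hg, chr7:79499776-79500075, plus strand, 35 CpG: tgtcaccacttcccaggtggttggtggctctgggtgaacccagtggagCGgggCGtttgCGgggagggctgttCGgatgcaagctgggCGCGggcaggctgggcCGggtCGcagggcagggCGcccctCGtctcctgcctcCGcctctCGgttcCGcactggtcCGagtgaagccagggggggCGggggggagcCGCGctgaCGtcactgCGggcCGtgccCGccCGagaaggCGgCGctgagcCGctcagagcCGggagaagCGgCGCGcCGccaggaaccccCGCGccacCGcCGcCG
Snhg17, chr2:158361473-158361772, minus strand, 14 CpG: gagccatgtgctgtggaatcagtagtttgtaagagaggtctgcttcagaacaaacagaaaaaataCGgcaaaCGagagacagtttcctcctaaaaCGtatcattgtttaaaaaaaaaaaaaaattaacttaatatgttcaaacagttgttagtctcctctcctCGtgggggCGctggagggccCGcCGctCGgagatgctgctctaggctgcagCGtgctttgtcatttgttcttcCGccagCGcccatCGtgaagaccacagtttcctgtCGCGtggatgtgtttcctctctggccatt
Lncenc1, chr13:97434720-97435019, plus strand, 4 CpG: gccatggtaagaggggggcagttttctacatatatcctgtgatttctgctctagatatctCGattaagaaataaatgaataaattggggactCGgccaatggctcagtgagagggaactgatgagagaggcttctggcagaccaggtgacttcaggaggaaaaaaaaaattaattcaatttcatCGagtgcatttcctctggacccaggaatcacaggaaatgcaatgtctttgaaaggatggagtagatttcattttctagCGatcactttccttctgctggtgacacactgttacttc
Platr3, chr2:135646273-135646572, plus strand, 2 CpG: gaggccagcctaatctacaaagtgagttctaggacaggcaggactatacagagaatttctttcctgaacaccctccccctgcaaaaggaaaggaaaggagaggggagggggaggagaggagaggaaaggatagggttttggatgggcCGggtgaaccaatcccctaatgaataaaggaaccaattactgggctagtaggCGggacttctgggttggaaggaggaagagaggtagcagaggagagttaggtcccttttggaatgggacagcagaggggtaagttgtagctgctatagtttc

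Each locus was scored in 2 windows, which reached 2 kb to either side of its 5′ and 3′ ends, and counted as marked when a peak overlapped either window by at least 1 bp. In the control H3K27ac list 1798 of 6104 loci were marked, or 29.5% (28.3 to 30.6), against a background of 47.7% over all 35625 RefSeq genes of 1 kb or longer. In the mutant H3K27ac list 2541 loci were marked, or 41.6% (40.4 to 42.9), with a background of 53.4%. H3K4me3 marked 2536 loci, or 41.5% (40.3 to 42.8), in control embryos and 2799, or 45.9% (44.6 to 47.1), in mutant embryos, and the background was 65.5% in both lists. Intergenic lncRNA loci thus carried each mark less often than RefSeq genes at large, in all 4 lists. Among protein-coding genes 59.2% and 62.4% had H3K27ac in control and mutant embryos, and 80.7% and 79.3% had H3K4me3. The 5931 lncRNA loci that the distance rule left out lay between, with 43.1% and 50.7% for H3K27ac and 63.1% and 63.5% for H3K4me3.

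The level around the loci was measured with the same windows moved 10 kb outward from each end. Moved windows can reach coding genes near a locus. At the 1421 loci of 1 to 4 kb the gene-end windows overlap and the moved ones do not, so moved pairs span more sequence there. Closeness to the moved windows therefore does not show that a mark is absent from the ends themselves. For H3K27ac, 31.5% of moved window pairs held a peak in control and 42.1% in mutant embryos, close to the shares of the loci themselves. For H3K4me3 the moved windows gave 42.9% and 46.6%, again close to the loci. At protein-coding genes H3K27ac was likewise close to its moved windows, at 59.2% against 58.1% in control and 62.4% against 63.4% in mutant embryos, whereas H3K4me3 stood well above the moved windows, at 80.7% against 64.3% in control embryos. The mutant-minus-control difference of 12.2 percentage points for H3K27ac at the loci was therefore accompanied by a difference of similar size 10 kb away. The mutant H3K27ac list was also longer than the control list. When it was cut to the number of control peaks by dropping its narrowest peaks, which lowers its length and sets a width floor on that list alone, the difference was 2.80 points at the loci, -2.98 points at protein-coding genes and -1.42 points over all RefSeq genes. The H3K4me3 lists were of nearly equal length, and the difference was 4.31 points at the loci against -1.39 points at protein-coding genes. The moved windows of the loci, at 42.9% and 46.6%, also held H3K4me3 more often in mutant embryos.

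**Figure D1:**
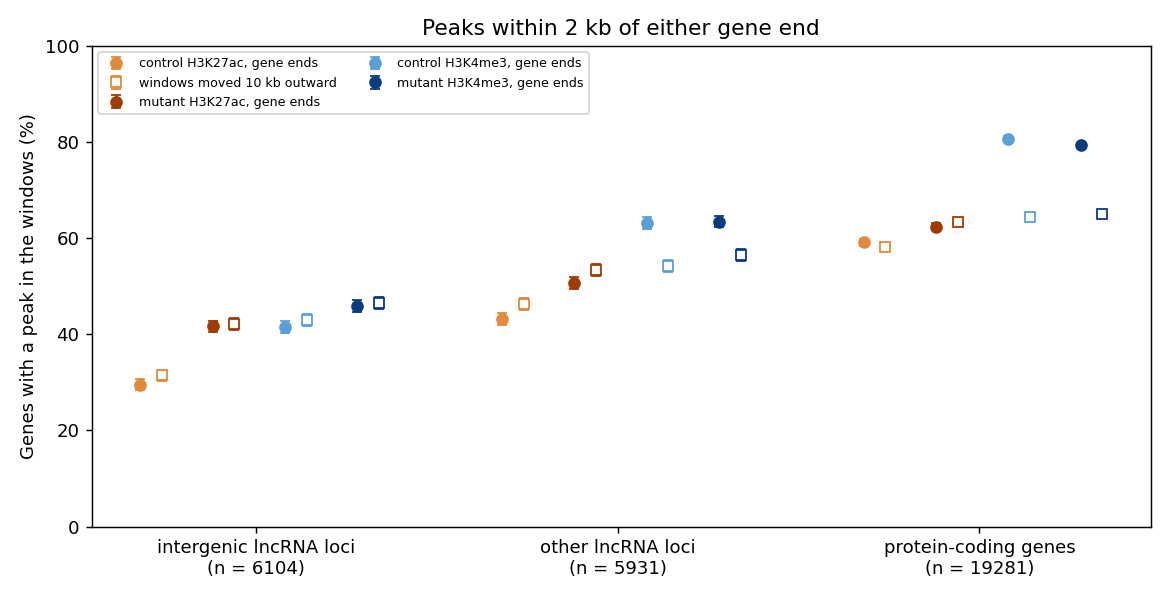
Percentage of genes with a peak within 2 kb of either gene end (filled circles) and in the same windows moved 10 kb outward (open squares of the same colour), for 3 gene sets and the 4 deposited peak lists. Bars are 95% Wilson intervals. Circles and squares lie together at intergenic lncRNA loci, whereas at protein-coding genes the H3K4me3 circles, at 80.7% and 79.3%, lie above their squares. Moved windows can reach coding genes and span more sequence at short loci.

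The 2 ends of a locus were then separated at the loci of known strand. Within 2 kb of the start, H3K4me3 was found at 1458 of 4632 loci (31.5%, 30.2 to 32.8) in control embryos and at 1630 (35.2%, 33.8 to 36.6) in mutant ones, where the backgrounds over all RefSeq genes with a strand were 64.4% and 63.1%. The 3′ end held H3K4me3 at 25.3% and 28.8% of the same loci. H3K27ac lay within 2 kb of the start at 19.6% (18.5 to 20.8) of loci in control and 28.7% (27.4 to 30.03) in mutant embryos, with backgrounds of 40.9% and 42.6%, and at the 3′ end at 18.7% and 25.9%. As a reference for windows of this length, 250061 tiles of 4001 bp were laid over intergenic sequence without any RefSeq gene. Of these tiles 12.03% and 16.9% held H3K27ac and 13.0% and 14.1% held H3K4me3 in control and mutant embryos. Both ends of the loci were thus marked more often than gene-free intergenic sequence in every list, and for H3K4me3 the start more often than the end. The tiles were not matched to the loci for distance from coding genes. Positions 8 to 10 kb from the starts also exceeded the tiles, with control H3K27ac over 8.58% of them and 4.56% of tile bases. For control H3K4me3 these values were 12.2% and 5.14%. Among the 3597 loci longer than 4 kb, 670 had H3K4me3 at the start alone and 392 at the end alone in control embryos, a ratio of 1.71. The ratio was 1.65 in mutant embryos. For H3K27ac it was 1.10 in control and 1.23 in mutant embryos. At protein-coding genes the ratio in control and mutant embryos was 11.3 and 7.60 for H3K4me3 and 1.997 and 1.572 for H3K27ac.

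Coverage by peaks was next followed around the start in steps of 250 bp. In control embryos 19.6% (18.5 to 20.8) of the lncRNA starts lay under an H3K4me3 peak, against 12.2% on average at positions 8 to 10 kb away on both sides. In mutant embryos the values were 21.8% (20.6 to 23.0) and 14.8%. Coverage was therefore 7.36 points above the flanks in control and 6.92 points in mutant embryos. The H3K27ac summit was lower. In control embryos 9.46% (8.65 to 10.3) of starts lay under an H3K27ac peak against 8.58% in the flanks, a difference of 0.87 points. With peaks of 1 kb or wider that difference was 0.52 points. The interval of the start share, taken relative to a flank mean held fixed, then ran from -0.25 to 1.36 points, which is not an interval for the difference itself. In mutant embryos 13.04% (12.1 to 14.04) of starts were covered against 10.2% in the flanks, a difference of 2.79 points. At protein-coding genes the H3K27ac excess over the flanks was 11.02 points in control and 7.15 points in mutant embryos, so it was smaller in mutant embryos at coding starts and larger at lncRNA starts. With mutant lists cut to equal length the mutant H3K27ac excess was 2.63 points at lncRNA starts and 7.08 points at coding starts.

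**Figure D2:**
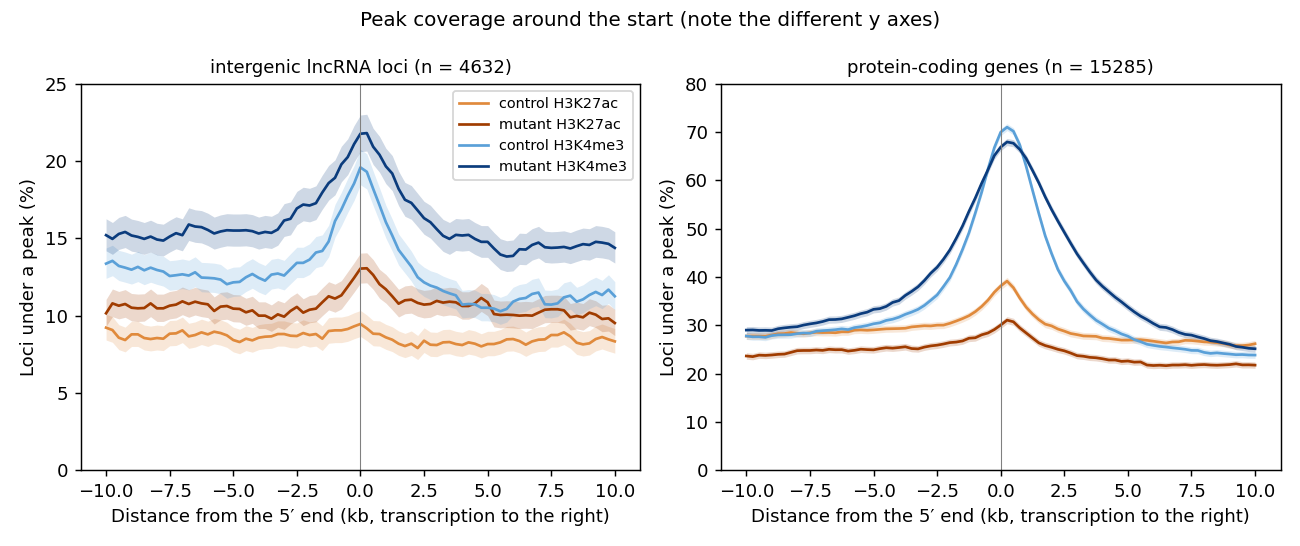
Percentage of loci under a peak at each position from 10 kb upstream to 10 kb downstream of the 5′ end, in steps of 250 bp, for 4632 intergenic lncRNA loci (left, axis to 25%) and 15285 protein-coding genes (right, axis to 80%). Bands are 95% Wilson intervals. H3K4me3 peaks at the start of both sets. H3K27ac is nearly flat at lncRNA loci in control embryos and has a low summit of 13.1% in mutant embryos.

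H3K4me3 at the start was more frequent among promoters with more CpG dinucleotides. The median lncRNA promoter held 3 CpG dinucleotides in 300 bases, against 15 in protein-coding genes, and 118 of 4632 (2.55%) held 15 or more, against 52.2% of coding promoters. In control embryos H3K4me3 was found within 2 kb of the start at 20.8% (19.01 to 22.7) of the 1856 loci with 0 to 2 CpG. The share was 31.3% with 3 to 5 CpG, 41.6% with 6 to 9, 59.9% with 10 to 14, and 78.0% (69.7 to 84.5) with 15 or more. In mutant embryos it ran from 25.3% in the first class to 72.9% (64.2 to 80.1) in the last. H3K27ac followed CpG content less steeply, with control shares of 16.1% (14.5 to 17.8) in the first class and 34.7% (26.8 to 43.7) in the last, and mutant shares of 24.6% and 39.8%. The mutant H3K27ac share did not follow the classes in order, with 30.6% at 3 to 5 CpG, 32.4% at 6 to 9 and 29.7% at 10 to 14. Coding starts of the same CpG class were marked by H3K4me3 more often, at 97.8% with 15 or more CpG. With 0 to 2 CpG the coding share was 25.1%.

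**Figure D3:**
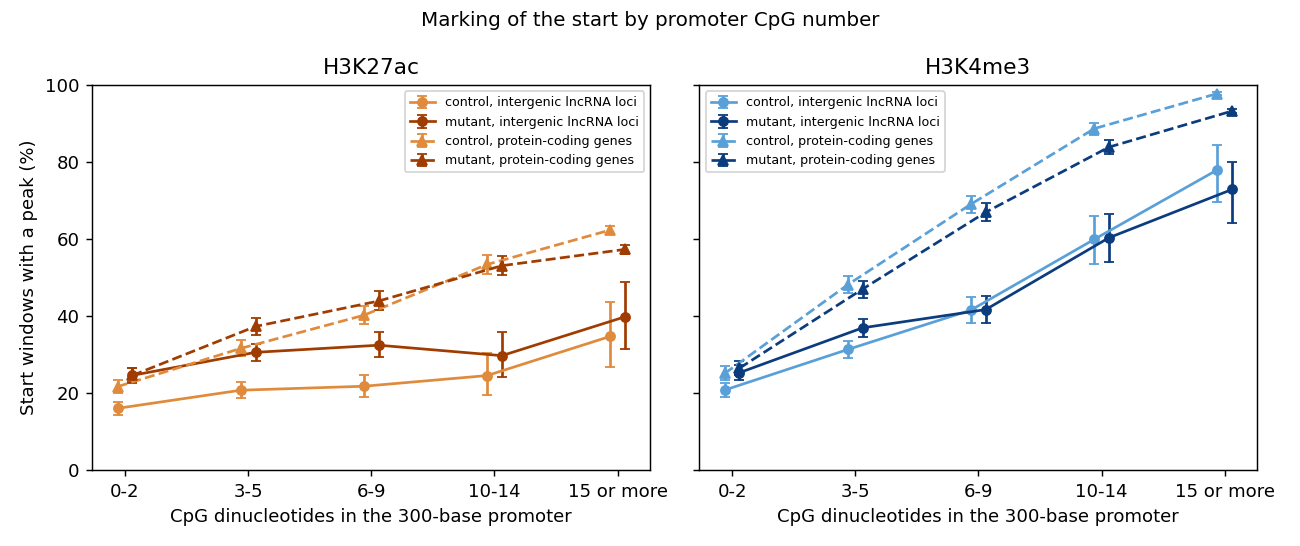
Percentage of start windows (2 kb on each side of the 5′ end) with a peak, by the number of CpG dinucleotides in the 300-base promoter, for H3K27ac (left) and H3K4me3 (right). Circles and full lines are intergenic lncRNA loci, triangles and dashed lines protein-coding genes, light colours control and dark colours mutant, and bars are 95% Wilson intervals. The H3K4me3 share of lncRNA starts goes from 20.8% to 78.0% in control embryos, below the coding genes in each class.

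The excess of H3K27ac at the start over the flanks also differed by CpG class. At lncRNA starts with 0 to 2 CpG it was -0.13 points in control and 1.35 points in mutant embryos, and with 3 to 9 CpG it was 0.60 and 3.36 points. At the 350 lncRNA starts with 10 or more CpG it was 8.05 points in control and 6.41 points in mutant embryos. At 10 or more CpG the lncRNA values rest on 68 control and 66 mutant starts under a peak, or 19.4% (15.6 to 23.9) and 18.9% (15.1 to 23.3), and these intervals overlap. Protein-coding starts gave 3.04 and 4.83 points at 3 to 9 CpG and 16.4 and 9.48 points at 10 or more CpG. The lncRNA and coding sets, whose pooled values went opposite ways, also differed in CpG content, and the part of CpG content in that difference was not tested. For H3K4me3 the excess at lncRNA starts with 10 or more CpG was 39.03 points in control and 34.2 points in mutant embryos, and with 0 to 2 CpG it was -0.04 and 0.52 points. The string TATAAA, searched on both strands anywhere in the 300 bases, lay in 841 lncRNA promoters (18.2%), against 12.8% of all RefSeq promoters of genes of 1 kb or longer. Of the promoters shown, that of Snhg5 held one. Starts with TATAAA had H3K4me3 in control embryos at 25.9% (23.1 to 29.0) and starts without it at 32.7% (31.2 to 34.2), but the motif is also AT-rich, and its part apart from CpG content was not tested.

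Between conditions, many loci held a peak in 1 list of a mark and not in the other. Of the 1798 loci carrying control H3K27ac, 680 lacked a mutant peak, or 37.8% (35.6 to 40.1), against a background of 26.0% over all RefSeq genes. Of the 4306 loci without H3K27ac in control embryos, 1423 had it in mutant embryos, or 33.05% (31.7 to 34.5), with a background of 34.6%. For H3K4me3, 789 of 2536 control-marked loci had no mutant peak, or 31.1% (29.3 to 32.9), against 13.3% over all RefSeq genes. Of 3568 loci without control H3K4me3, 1052 had a mutant peak, or 29.5% (28.01 to 31.0), with a background of 25.3%. At protein-coding genes the control-marked share without a mutant peak was 21.9% for H3K27ac and 7.71% for H3K4me3. Control-marked lncRNA loci thus lacked a mutant peak more often than coding genes did, for both marks. With the mutant H3K27ac list cut to equal length, the control-only share of H3K27ac was 45.05% and the mutant-only share 22.8%, against 30.7% and 25.3% over all RefSeq genes. Gene-free intergenic tiles, not matched for distance from coding genes, had higher control-only shares than lncRNA start windows. Of control-marked tiles, 57.9% and 53.2% lacked a mutant peak, against 46.9% and 35.4% of start windows of the same length.

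Peak width moved with these shares. The widest control peak at a marked locus had a median width of 2573 bp for H3K27ac and 2954.5 bp for H3K4me3, against 7762.5 bp and 5309 bp at protein-coding genes. Loci whose widest control H3K27ac peak was 500 bp or less had no mutant peak in 68.5% of cases, and those with a peak over 10 kb in 14.6%. For H3K4me3 these shares were 69.3% and 5.59%. Within a width class the H3K4me3 share was higher at lncRNA loci than at protein-coding genes in all 6 classes, for example 26.1% (23.1 to 29.4) against 7.93% (7.24 to 8.69) for control peaks of 2 to 5 kb. The intervals overlapped in the class up to 500 bp, at 63.5 to 74.6 and 55.2 to 67.75. For H3K27ac it was higher in 5 of 6 classes. The exception was 5 to 10 kb, with 17.3% against 19.05%, and the intervals of lncRNA loci and coding genes overlapped in each of the 4 classes over 1 kb.

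At loci marked in both conditions the widths went opposite ways for the 2 marks. Among 1118 such loci for H3K27ac, 662 (59.2%) had a narrower widest peak in the mutant list, with a median ratio of mutant to control width of 0.776. The widest H3K4me3 peak was wider in mutant embryos at 1089 of 1747 loci, with a median ratio of 1.25. Protein-coding genes gave 0.623 and 1.23. The widest peak was chosen over both ends and separately in each list, so the peaks compared need not overlap. H3K27ac peaks over 5 kb lay at 627 loci in control and 573 in mutant embryos, and H3K4me3 peaks over 5 kb at 834 and 1123 loci. These were 34.9%, 22.6%, 32.9% and 40.1% of the marked loci, against 56.5%, 38.5%, 47.1% and 59.3% of all marked RefSeq genes. Few of the peaks reached a coding gene end. The widest peak at a marked locus also reached a window of 2 kb around a coding gene end at 7.23% of loci for control H3K27ac, 2.68% for mutant H3K27ac, 4.10% for control H3K4me3 and 4.89% for mutant H3K4me3.

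Over the bodies of the loci, which spanned 124.5 Mb in sum, control H3K27ac peaks covered 6.47 Mb (5.195%) and mutant H3K27ac peaks 8.70 Mb (6.98%). The H3K4me3 lists covered 8.92 Mb (7.16%) for control and 11.5 Mb (9.23%) for mutant embryos. At protein-coding genes H3K27ac coverage of bodies was lower in mutant embryos, at 14.1% and 12.75%, and H3K4me3 was 12.7% and 13.7%. Bodies covered to 50% or more numbered 464 and 467 for H3K27ac and 644 and 827 for H3K4me3, or 7.60%, 7.65%, 10.55% and 13.55% of loci. Over all RefSeq genes these shares were 17.4%, 13.4%, 19.7% and 21.7%. A peak touched the body at 35.4% and 47.05% of loci for H3K27ac and at 46.0% and 50.03% for H3K4me3, against 55.1%, 59.7%, 67.4% and 67.5% over all RefSeq genes. The median locus had 0% of its body covered in both H3K27ac lists and in the control H3K4me3 list.

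With the marks combined, 1179 loci (19.3%) had both in control and 1621 (26.6%) in mutant embryos. H3K4me3 alone was found at 1357 and 1178 loci, H3K27ac alone at 619 and 920, and neither at 2949 and 2385. Over all RefSeq genes of 1 kb or longer, 41.6% and 44.0% had both marks, 23.9% and 21.5% H3K4me3 alone, 6.07% and 9.45% H3K27ac alone, and 28.4% and 25.1% neither. A peak in all 4 lists was found at 716 loci (11.7%) and in no list at 1689 (27.7%), beside 10897 and 6400 of the 35625 RefSeq genes. Of the 1179 loci with both marks in control embryos, 60.7% (57.9 to 63.5) had both in mutant embryos, against 73.5% over all RefSeq genes with both marks in control embryos. At the 1357 loci with H3K4me3 alone in control embryos, H3K27ac was present in mutant embryos at 47.5% (44.8 to 50.1), against 26.4% (24.9 to 28.04) of the 2949 loci with neither mark. Conversely, control H3K27ac was without a mutant counterpart at 27.1% (24.6 to 29.7) of loci that also had H3K4me3 and at 58.3% (54.4 to 62.1) of loci that did not. The corresponding shares at protein-coding genes were 50.7% and 21.7%, and 19.8% and 54.0%.

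Loci farther from coding genes were marked less often. Among the 680 loci at 5 to 10 kb, 45.1% had H3K27ac and 61.6% H3K4me3 in control embryos, and 57.6% and 65.1% in mutant embryos. Among the 1103 loci over 200 kb away, the shares were 15.4% and 21.4% in control and 25.3% and 23.4% in mutant embryos. Control H3K27ac without a mutant peak made up 25.1% (20.6 to 30.2) of marked loci at 5 to 10 kb, 29.5% at 10 to 50 kb, 52.2% at 50 to 200 kb and 67.6% (60.3 to 74.2) over 200 kb. For H3K4me3 the series was 18.9% (15.4 to 22.9), 26.4%, 38.7% and 56.8% (50.4 to 62.9). The most isolated loci were thus marked least often and shared their marks between conditions least often. H3K27ac was present at more loci in mutant than in control embryos in each distance class, with differences of 9.88 to 13.2 points. These values use the full lists. With lists of equal size the difference over all loci was 2.80 points, and it was not computed by distance class.

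**Figure D4:**
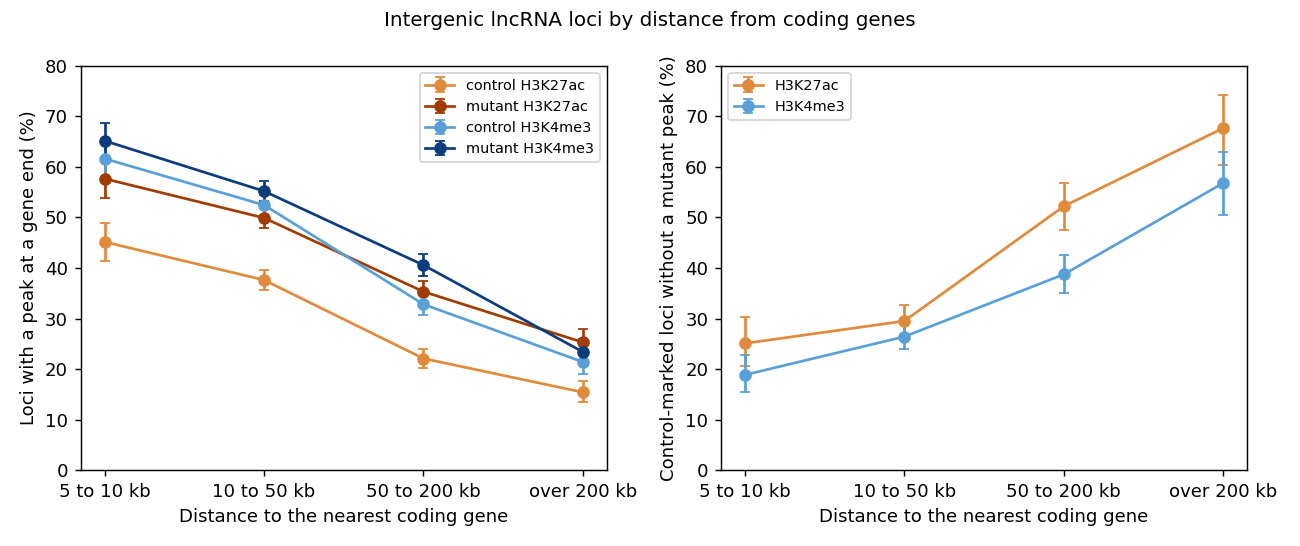
Left, percentage of intergenic lncRNA loci with a peak within 2 kb of either gene end, by distance to the nearest coding gene, for the 4 lists. Right, percentage of control-marked loci without a mutant peak. Bars are 95% Wilson intervals. Marking declines with distance, and the unshared part goes from 25.1% to 67.6% for H3K27ac and from 18.9% to 56.8% for H3K4me3.

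Length and record type were examined next. Loci over 30 kb were marked least, by control H3K27ac at 24.1% and by control H3K4me3 at 34.3%, and loci of 4 to 10 kb most, at 33.04% and 44.8%. In the mutant lists the most marked class was 10 to 30 kb, at 44.7% and 48.9%, close to 44.1% and 48.4% at 4 to 10 kb. Curated loci had more control H3K4me3, at 47.2% (44.6 to 49.8), than loci known from models alone, at 39.9% (38.5 to 41.3), and control H3K27ac at similar shares of 30.1% and 29.3%. In mutant embryos the H3K4me3 shares of the 2 record types were 47.8% and 45.3%. By chromosome, the mutant-minus-control difference of H3K27ac-marked loci was above 0 on all 19 autosomes, from 4.64 points on chromosome 7 to 17.4 points on chromosome 12. These values use the full lists, of which the mutant H3K27ac list was the longer. With lists of equal size the difference over all loci was 2.80 points, and it was not computed by chromosome. For H3K4me3 the difference with the full lists was above 0 on 17 of 19, from -2.19 points on chromosome 17 to 8.39 points on chromosome 9. Chromosome 19, with 140 loci, had the highest marked share in each of the 4 lists, between 37.1% and 62.1%. Shares and differences over all RefSeq genes were not computed by chromosome.

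Of 87 studied lncRNAs on a list written from general knowledge, 71 matched an autosomal lncRNA symbol. The rule kept 37 of these, and all 37 are described here. H3K27ac was found at 21 of them in control and 22 in mutant embryos, and H3K4me3 at 28 and 27. Peaks in all 4 lists were found at 13, and 3 had none. Among all 6104 loci, 716 were in all 4 lists and 1689 in none. H3K27ac was control-only at 5 of the 21 and mutant-only at 6 of the 16 without it in control embryos, and H3K4me3 was control-only at 5 of 28 and mutant-only at 4 of 9. Over all loci the control-only shares were 37.8% and 31.1% and the mutant-only shares 33.05% and 29.5%. Of the 16 with H3K27ac in both lists, 12 had a narrower widest peak in the mutant list. Of the 23 with H3K4me3 in both lists, 18 had a wider one. Over all loci these counts were 662 of 1118 and 1089 of 1747. Widths below are those of the widest peak touching the gene-end windows in each list. The peaks of a pair can therefore lie at different ends of a locus or apart from each other. Coverage is the share of gene-end window bases under peaks. Where a pair of values is given, control comes first.

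The loci of 3 nuclear RNAs, grouped here by role, are described first. Malat1 (chromosome 19, 5795690 to 5802672) encodes an abundant RNA of nuclear speckles. Its H3K27ac coverage was 86.5% in control and 37% in mutant embryos, with widest peaks of 10114 and 2606 bp, while H3K4me3 covered 100% in both with peaks of 29092 and 43757 bp. Neat1 (chromosome 19, 5824708 to 5845480), the scaffold of paraspeckles, lay close by. It went the other way for H3K27ac, with coverage of 50% in control and 100% in mutant embryos and peaks of 13274 and 23259 bp, and its H3K4me3 peaks were 23951 and 33693 bp wide. Miat, another nuclear lncRNA, had H3K27ac peaks of 1247 and 2554 bp and H3K4me3 peaks of 11145 and 7862 bp. Malat1 and Neat1 thus had H3K27ac coverage that differed in opposite directions between the lists, while H3K4me3 covered both in full.

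The 4 small nucleolar RNA host genes on the list had promoters with 14 to 36 CpG and H3K4me3 at the start in both conditions. Snhg5 (chromosome 9, 88521052 to 88522897) had H3K27ac coverage of 80.3% in control and 52.45% in mutant embryos, and H3K4me3 coverage of 100% in both. Snhg11 (chromosome 2, 158375713 to 158386474) had H3K27ac peaks of 22935 and 12126 bp and H3K4me3 peaks of 9172 and 9774 bp. At Snhg17, on the same chromosome (158353700 to 158361522), a control H3K27ac peak of 1542 bp had no mutant counterpart. The widest H3K4me3 peaks there were 2121 bp at the start in control and 7481 bp at the 3′ end in mutant embryos. Snhg20 had H3K27ac peaks of 3598 and 2595 bp at its 3′ end and none within 2 kb of its start. Norad, an RNA that binds Pumilio proteins, was marked in all 4 lists, with H3K4me3 coverage of 63.5% in control and 22.8% in mutant embryos. Oip5os1, also known as Cyrano, is a conserved RNA that promotes decay of a microRNA. Its widest peaks lay at the start in control embryos, at 4720 bp for H3K27ac and 1262 bp for H3K4me3. In mutant embryos they lay at the 3′ end, at 379 and 3387 bp.

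The microRNA host genes on the list are given one by one. Mir17hg, whose microRNAs act in cell proliferation, had H3K4me3 peaks of 5223 and 6576 bp and H3K27ac in mutant embryos alone (1291 bp). Mir9-3hg and Mir124a-1hg encode neuronal microRNAs. At Mir9-3hg the widest H3K4me3 peak was 2021 bp at the 3′ end in control and 8606 bp at the start in mutant embryos. It had no H3K27ac at its ends. Mir124a-1hg had H3K4me3 peaks of 6070 and 6207 bp with control H3K27ac of 279 bp. Mir99ahg had narrow H3K4me3 peaks of 704 and 679 bp and control H3K27ac of 206 bp. Mir100hg had no H3K4me3 at its ends, with a mutant H3K27ac peak of 909 bp. CpG-rich promoters without H3K27ac in control embryos were thus found among these hosts, with 35 CpG at Mir9-3hg and 15 at Mir100hg.

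The Platr transcripts, named for their association with pluripotency in embryonic stem cells, split into marked and unmarked loci. Platr14 (chromosome 2, 104559184 to 104571429) had H3K27ac peaks of 26570 and 8029 bp and H3K4me3 peaks of 7311 and 13676 bp. Platr22 and Platr27 were likewise in all 4 lists, with H3K4me3 peaks of 16347 and 19167 bp and of 2066 and 6019 bp. Platr26 had H3K27ac peaks of 3051 and 8326 bp and H3K4me3 in mutant embryos alone (3233 bp). Platr3 and Platr4 had no peak at either end, and their bodies were free of peaks too. Lncenc1, another transcript of embryonic stem cells, had a control H3K4me3 peak of 675 bp and a mutant H3K27ac peak of 157 bp.

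The imprinted loci H19 and Mirg had no H3K27ac at their ends. H19 (chromosome 7, 142575530 to 142578146), expressed from the maternal allele in later tissues, had an H3K4me3 peak of 2313 bp in control embryos and none in mutant embryos. Mirg had H3K4me3 peaks of 2057 and 3320 bp. Both are read without allele information here. Pvt1, the neighbour of Myc, had H3K4me3 in control embryos alone (1974 bp) and H3K27ac in mutant embryos alone (1884 bp). Trp53cor1 (chromosome 17, 29057474 to 29079126), or lincRNA-p21, lay 11853 bp from Cdkn1a and had coverage of 83.1% to 100% across the 4 lists. Its widest H3K27ac peaks were 26508 and 15383 bp. Its widest H3K4me3 peaks, of 22463 and 24545 bp, did not overlap each other. Lncpint, another p53-linked RNA, had control H3K27ac of 306 bp and H3K4me3 peaks of 2700 and 5519 bp. Morrbid, which acts on the death gene Bcl2l11 in blood cells, had a mutant H3K4me3 peak of 5919 bp as its single mark at the ends.

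The remaining loci are mostly of lncRNAs studied in later lineages. Hotair, in the HoxC cluster, had a control H3K4me3 peak of 645 bp and nothing else. Dubr, studied in muscle cells, had control H3K4me3 alone (1182 bp), although its promoter held 19 CpG. Rmst, a neural RNA, had mutant peaks alone, of 604 bp for H3K27ac and 3667 bp for H3K4me3. Tunar, which acts in pluripotency and neural differentiation, had H3K4me3 peaks of 1411 and 2635 bp. Pantr2, near Pou3f3, had H3K4me3 peaks of 3315 and 3196 bp and control H3K27ac of 993 bp. Bvht and Carmn are cardiovascular lncRNAs. Their windows overlap, and a mutant H3K4me3 peak of 22584 bp reached both, against control peaks of 4943 bp at Bvht and 7980 bp at Carmn. The control peak at Carmn lay at its other end and did not overlap that mutant peak. Carmn had H3K27ac in mutant embryos alone (4746 bp), and Bvht in both (2910 and 1204 bp). Lncppara had H3K27ac peaks of 716 and 205 bp, 4930461G14Rik had them of 233 and 1170 bp with mutant H3K4me3 of 928 bp, and Lncbate10 of brown fat had no peak at its ends, although mutant H3K27ac covered 13.9% of its body.

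**Figure D5:**
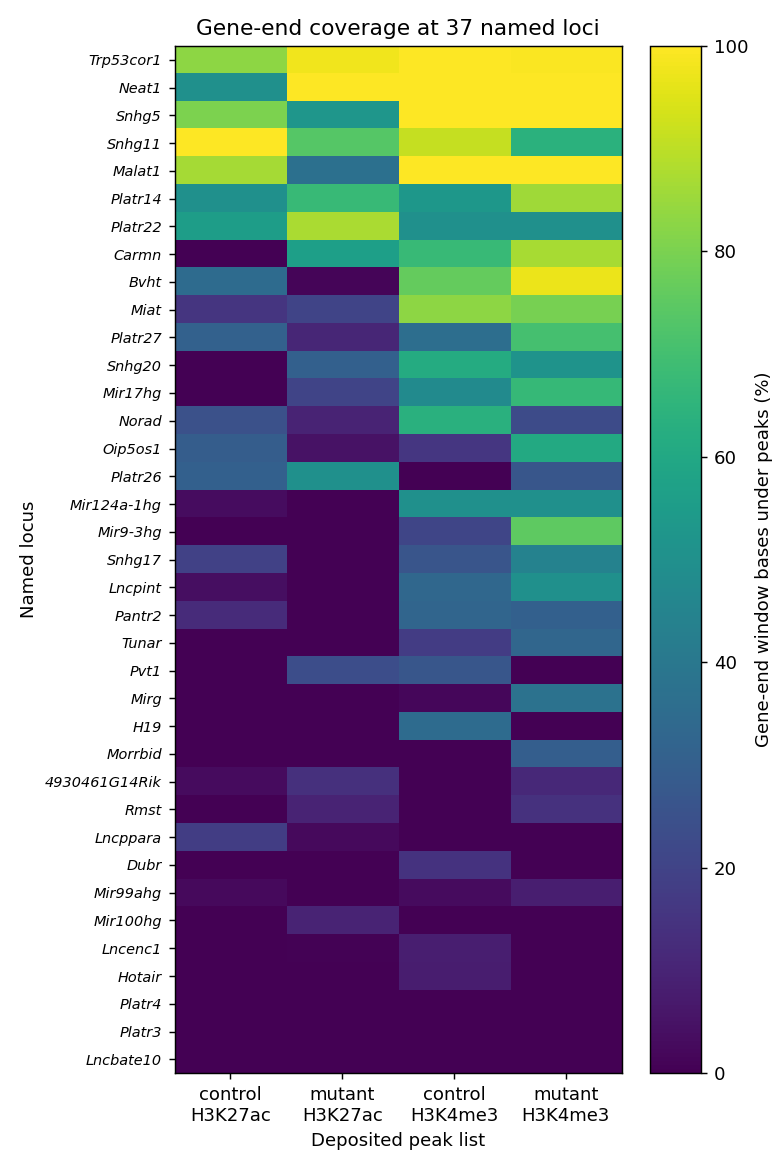
Percentage of gene-end window bases (2 kb on each side of both ends) under peaks at the 37 named loci, ordered by the sum over the 4 lists, with the colour scale from 0 to 100%. Trp53cor1, Neat1, Snhg5, Snhg11 and Malat1 lie at the top, and Platr4, Platr3 and Lncbate10, at 0 in all lists, at the bottom.

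Some of the widest peaks spanned more than 1 locus. The widest control H3K27ac peak at any locus measured 93595 bp (chromosome 4, 133750994 to 133844588) and covered Gm29942 and Gm30019, where the widest mutant peak measured 10553 bp. The next, of 78288 bp, lay over Gm12596 on the same chromosome (59210481 to 59288768), 37218 bp from Ugcg, where the mutant peak measured 5269 bp. The widest mutant H3K27ac peaks were 44287 bp at Gm40445, 33869 bp at Gm34894 and 27635 bp at Gm33742. For H3K4me3 the widest control peaks were 55149 bp at Gm9918 and 47515 bp at Gm38882 and its neighbour Gm38883, with mutant peaks of 10430 and 4808 bp. The Gm38882 promoter held 40 CpG. The widest mutant H3K4me3 peaks were 49639 bp at Gm26634, 49596 bp at 2410004I01Rik and 49222 bp at Gm41398, with control peaks of 24630, 44265 and 4673 bp. At Gm41398 the control and mutant peaks did not overlap.

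Wide peaks found in 1 condition alone were also present. Gm39036 (chromosome 7, 73602753 to 73604109), 61007 bp from Chd2, lay within a control H3K27ac peak of 74531 bp and had no mutant H3K27ac peak, while its H3K4me3 peaks were 14249 and 22334 bp wide. Gm9918 and Gm51961 likewise had control H3K27ac peaks, of 70002 and 34522 bp, with none in mutant embryos and H3K4me3 in both. Among mutant-only H3K27ac loci, the widest peaks were 20188 bp at Gm40627, 19399 bp at Gm43837 and 18611 bp at Gm46150. Gm43837 (chromosome 5, 64377953 to 64389875) had both marks in mutant embryos, with H3K4me3 of 16175 bp, and neither at its ends in control embryos, where H3K27ac covered 8.38% of its body. Control-only H3K4me3 was widest at Gm4316 (20679 bp), Gm35779 (14436 bp) and 1700055C04Rik (14355 bp). Mutant-only H3K4me3 was widest at Gm35183 (32683 bp), Gm39239 (21130 bp) and Gm36924 (19998 bp), all 3 of which had H3K27ac in control embryos. At Gm36924 control H3K4me3 covered 39.7% of the body without reaching its ends, and at Gm35779 mutant H3K4me3 likewise covered 28.8% of the body.

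At the distance limit of the rule, the nearest loci inside were Gm10451, Gm52181 and Gm52187, at 5005, 5008 and 5009 bp from a coding gene. Gm10451 had both H3K4me3 peaks (7259 and 21541 bp) and mutant H3K27ac (5237 bp), Gm52181 had control H3K27ac (7817 bp) and mutant H3K4me3 (4569 bp), and Gm52187 had none. Just outside lay Gm40621, Gm42142 and Gm11681, at 4987, 4985 and 4974 bp. Gm40621 had mutant H3K4me3 alone (657 bp), Gm42142 had both H3K4me3 peaks (192 and 6009 bp) with mutant H3K27ac (1298 bp), and Gm11681 was marked in all 4 lists.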

How the data were processed

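The study holds 16 libraries in 8 groups of 2, immunoprecipitation and input for each mark and condition, of which 4 peak lists were analysed. Per the submitters' processing notes the tools were CASAVA, Trimmomatic, Bowtie2, SAMtools, Picard, MACS2 and deepTools, without versions or parameters, on mm10 (GRCm38). The deposited lists give peak positions alone, and whether replicates were pooled before calling is not given in the sources used here. Positions were read as BED intervals. Gene positions and biotypes came from the RefSeq table of GRCm38.p6, strand and promoters from the RefSeq promoter table. Overlaps, coverage and widths were computed with Python 3.11.15, numpy 2.4.6, pandas 2.3.3 and scipy 1.17.1, by functions tested on simulated intervals. The named loci were the listed lncRNAs that passed the rule, the 3 with the widest peak in each list, the 3 with the widest control-only and mutant-only peaks of each mark, and the 3 nearest to the distance limit on each side. The members, the lists and the comparisons were chosen with earlier results of these data known. Start-flank differences, gene-free tiles, CpG classes, width, distance and other breakdowns, and the promoters printed were added with the peak lists in view. Alternatives changed window size, overlap, peak width, list length and the distance rule. No test was made between conditions, because each group has 1 list. Loci without a known strand were left out of start and promoter values, and chromosomes X and Y and scaffolds of all values.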

Additional observations from a re-analysis of the deposited data

How the results depend on the processing

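The mutant-minus-control differences at intergenic lncRNA loci stayed above 0 for both marks under every alternative run, but with lists of equal size the H3K27ac difference was -2.98 points at protein-coding genes and -1.42 over all RefSeq genes, against 3.22 and 5.73 with the full lists. The H3K4me3 excess at lncRNA starts was 6.29 points in control and 6.32 in mutant embryos with peaks of 1 kb or wider, and 7.06 and 7.14 over 20 kb from coding genes, the opposite order of the reported 7.36 and 6.92. Shares of marked loci are given in the order control H3K27ac, mutant H3K27ac, control H3K4me3, mutant H3K4me3. With windows of 1 kb they were 23.07%, 32.37%, 35.04% and 38.86%, and with windows of 5 kb 42.38%, 56.62%, 54.78% and 59.31%. An overlap of 500 bp gave 27.08%, 37.94%, 38.71% and 42.97%, and peaks of 1 kb or wider gave 19.4%, 28.06%, 33.32% and 38.14%. Loci over 10 kb from coding genes (5424) gave 27.49%, 39.62%, 39.03% and 43.44%. Loci over 5 kb from every other gene (3596) gave 39.93% for mutant H3K27ac, 38.65% for control and 42.69% for mutant H3K4me3. Common calling limits (peaks under 750 bp apart merged, peaks under 200 bp dropped) gave 28.13% and 39.4% for H3K27ac, and lists of equal size 32.26% for mutant H3K27ac.

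The H3K27ac difference was 9.305 points with 1-kb windows, 14.24 with 5-kb windows, 10.86 with the 500-bp overlap, 8.666 with wider peaks and 2.801 with lists of equal size. The control-only share of H3K27ac and H3K4me3 was 41.26% and 34.27% with 1-kb windows, 28.6% and 22.91% with 5-kb windows, 33.61% and 28.27% with wider peaks, 40.44% and 33.54% over 10 kb from coding genes, and 40.6% and 33.17% away from every other gene. With lists of equal size it was 45.05% for H3K27ac. The mutant-only share was 24.47% and 24.36% with 1-kb windows, 45.75% and 37.75% with 5-kb windows, 29.63% and 27.59% with the 500-bp overlap, and 18.84% and 21.35% with wider peaks. For H3K27ac it was 30.43% under common calling limits and 22.78% with lists of equal size, and for H3K4me3 27.47% away from every other gene. The other 65 values moved less than their interval or 1.5 times, those with 1 locus per cluster among them. The cause of these shifts was not tested beyond the construction of each alternative.

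No paired analysis was possible because the 2 libraries of a group share 1 list. Leaving out a replicate was not possible for the same reason. The alternatives for differences between conditions and for start coverage were chosen after seeing the data. Depth is unknown, so an absent peak is an absent call and does not show an absent mark.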
